A study of Musa balbisiana with 10 samples.

Results

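The regions described here were expressed in the pulp of untreated Klutuk Wulung banana on both sampling days and were close to 0 in fruit that had been exposed to ethylene and sampled on day 1. A region was made by pooling the loci of at least 300 bp from all 10 library tables, merging those that overlapped on a chromosome, and summing their FPKM in each table. FPKM is the number of fragments scaled by transcript length and by library size. A region belonged to the set when its mean was at least 5 FPKM in control fruit on day 1 (K1) and on day 7 (K7) and under 1 FPKM in ethylene-treated fruit on day 1 (E1). This gave 125 of the 27929 regions that had a row in every table, and 1.15% of the 10834 regions that met the floor of 5 FPKM in both control groups. Of ethylene-treated fruit on day 7 (E7), the choice used that each table had a row for the region and not its level. A region was called off in E7 at a mean under 1 FPKM, partial from 1 to under 5, and returned at 5 or more. By these limits 0 of the 125 regions were off in E7, 67 were partial and 58 had returned. The same 125 and the same counts were obtained when a row was required in the K1, K7 and E1 tables alone, with a missing E7 row read as 0. With a missing row in any table read as 0, 149 regions met the rule and 3 of them were off in E7, none of which had a row in an E1 table.

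The fruit was Musa balbisiana of the cultivar Klutuk Wulung (BB group). Treated fruit was held with ethylene gas at 100 µl/L in a glass container, and control fruit received no ethylene. K1 had 2 libraries (A and B), E1 had 2 (A and C), and K7 and E7 had 3 each (A, B and C). The study calls the replicates biological, and the sources do not say whether they came from separate fruits or bunches, so the p-values measure the spread between these libraries. The labelled tissue is fruit pulp, and it was not checked against marker genes, since the tables pair no gene names with their identifiers. These are bulk samples, so fewer cells of a type and less RNA per cell cannot be told apart.

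Banana is a climacteric fruit, in which a rise of ethylene and respiration accompanies ripening. In flowering plants ethylene binds membrane receptors that otherwise hold the pathway off, and the signal passes through EIN2 to the EIN3 family of transcription factors, which turn on further transcription factors of the ERF family. In ripening pulp, starch is converted to sugars, cell walls soften, and many genes of the unripe fruit are expressed at lower levels.

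The tables name some loci by annotated identifiers that start with Mba and leave others without one. Inside the 125 regions there were 83 Mba identifiers, written here without their version ending. They lay in 76 regions, of which 70 held 1 identifier, 5 held 2 and 1 held 3, and the other 49 regions held none. A RefSeq table for the assembly BananaB_V1 gave locus tags whose span was the same as that of a locus in the authors' tables for 90 of the 125 regions, with 110 tags in all. Of the 49 regions without an Mba identifier, 30 had such a tag and are called by it below. The other 19 had neither and are called by their position in the DH PKW v1.1 genome. Neither source gives a product name, so no role is given to any region.

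In every control library most of the 125 regions were well above the limit, and in both E1 libraries most were below it. The median over the 125 regions was 7.91 and 7.41 FPKM in K1 A and B, 8.59, 6.73 and 8.04 in K7 A, B and C, and 0.467 and 0.544 in E1 A and C. In E7 A, B and C it was 5.04, 4.42 and 4.46 FPKM, between the E1 and the control libraries. Of the 125 regions, 119 were under 1 FPKM in E1 A and 105 in E1 C, against 0, 1 and 2 in E7 A, B and C. At least 5 FPKM was reached by 63 regions in E7 A, 46 in E7 B and 47 in E7 C, and by 94 to 120 in the control libraries. Reads were single-end in K1 A, K7 A and E7 A and paired-end in the remaining 7, so the E7 library with the most regions at 5 FPKM or more was also the single-end one, and E1 had no single-end library. With the paired-end libraries alone, 109 regions met the rule, 94 of them among the 125, and 0 were off in E7.

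**Figure D1:**
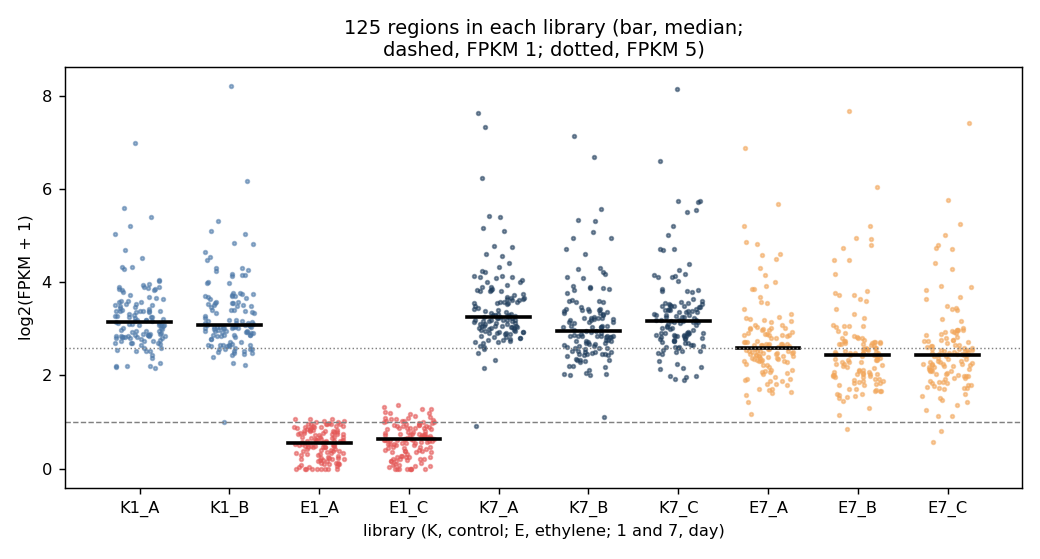
Level of the 125 regions in each of the 10 libraries, as log2(FPKM + 1), with 1 point for each region and a bar at the median. The dashed and dotted lines mark 1 and 5 FPKM. The E1 points lie around and below the dashed line, and the E7 medians lie between those of E1 and those of the control libraries.

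The values that chose the regions are given as a description, with no test. The group means ran from 5.03 to 211 FPKM in K1, with a median of 7.81, and from 5.05 to 207 in K7, with a median of 7.97. In E1 they ran from 0 to just under 1.00, with a median of 0.544. The ratio of the K1 mean to the E1 mean had a median of 16.6 and was lowest, at 6.18, in the region of Mba08_g26590. Both E1 libraries were under 1 FPKM in 99 regions, and in the other 26 one of them was at 1 or more, up to 1.56 in E1 C in the region of C4D60_Mb05t03010 and C4D60_Mb05t03020. All 5 control libraries were at 5 FPKM or more in 71 regions, and 58 regions had every control library at 5 or more and every E1 library under 1. The lowest control library was above the highest E1 library in 124 of the 125.

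The exception was chr4:33298169-33301651, which holds C4D60_Mb04t27270 and C4D60_Mb04t27280. It stood at 24.9 and 0.994 FPKM in K1 A and B, 0.879, 29.7 and 31.3 in K7 A, B and C, 1.09 and 0 in E1 A and C, and 35.7, 29.4 and 37.1 in E7. A control library was thus as low as E1 on each day, and the region met the rule through its group means alone.

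3 regions were listed at 0 FPKM in both E1 libraries. That of C4D60_Mb06t04350 was at 9.37 and 5.61 FPKM in K1, 15.0, 5.75 and 3.37 in K7, and 3.69, 1.90 and 1.69 in E7. That of Mba04_g22800 was at 4.97 and 6.67 FPKM in K1, 6.79, 6.73 and 8.04 in K7, and 2.81, 4.59 and 3.42 in E7. For the region of Mba06_g09340 and Mba06_g09350, the values were 5.49 and 4.93 FPKM in K1, 11.7, 1.16 and 2.76 in K7, and 2.66, 0.792 and 0.761 in E7. All 3 were above 0 in every E7 library, and the last had the lowest E7 mean of the 125, at 1.41 ± 1.09 FPKM (SD, n = 3). It was also the single region that fell under 1 FPKM in E7 when E7 A was left out, which made the number off in E7 1 in place of 0.

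The limits cut through a continuous range of levels. Just inside the E1 limit were chr4:31601542-31603607, with an E1 mean of 0.985 FPKM, Mba06_g33850, with 0.999, and Mba02_g07600, with just under 1.00. Just outside it were the regions of Mba07_g22340, Mba08_g16280 and chr2:19739819-19744625, with E1 means of 1.02, 1.03 and 1.03 FPKM. Their E7 means were 5.33, 12.6 and 11.7 FPKM, against 21.7, 5.60 and 12.4 for the regions just inside. At the floor of 5 FPKM the lower of the K1 and K7 means was 5.03 in Mba02_g15970, 5.05 in Mba03_g02780 and 5.05 in Mba09_g22070. It was 4.93 in chr10:35064840-35068262, 4.94 in Mba09_g17440 and 4.95 in Mba03_g09800, which were left out. E7 means on the 2 sides of the floor were 4.14, 4.46 and 2.89 FPKM inside and 2.97, 2.70 and 1.69 outside.

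On day 7 after ethylene every one of the 125 regions had a mean above 1 FPKM. E7 means ran from 1.41 to 163 FPKM with a median of 4.91. The limit of 1 FPKM was met in all 3 E7 libraries by 123 regions, and the lowest E7 library was above the highest E1 library in 122, where it was in 33.4% of all regions tested. E1 was held under 1 FPKM by the rule, which favours this separation, and nothing is read from it. The 3 regions in which E7 and E1 overlapped were those of C4D60_Mb05t03010 with C4D60_Mb05t03020, of C4D60_Mb05t05100, and chr6:41401496-41410363. Of all 10834 regions with at least 5 FPKM in K1 and K7, 0 had an E7 mean under 1, and 1.41 FPKM was also the lowest E7 mean among them. The count of 0 off is therefore shared with every region that met the floor. Returned regions had higher control levels than partial ones, with median K7 means of 10.4 and 6.38 FPKM, and were shorter, with median lengths of 3676 and 5569 bp. The state is a fixed cut on the E7 level and not on its ratio to K7. Regions of higher level therefore count as returned more readily, so the difference in control level is a description. All 3 E7 libraries were at 5 FPKM or more in 34 regions, and all 3 were under 5 in 50.

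The returned regions with the highest control level began with Mba01_g27630 (chr1:21699381-21701109). It was at 125 and 296 FPKM in K1, 0.869 and 1.02 in E1, 198, 139 and 283 in K7, and 117, 202 and 169.9 in E7. The 2 E1 libraries were the only ones near 1 FPKM, and the E7 and K7 libraries overlapped. The region is a single locus that all 10 tables list alone, with an upper bound of at most 1.33 FPKM in E1 and a lower bound of at least 113 in E7 and 122 in the controls. The region of C4D60_Mb06t28060 (chr6:33782210-33787864) had 41.2 and 11.9 FPKM in K1, 0.883 and 0.600 in E1, 160 (A), 101 (B) and 96.0 (C) in K7, and 27.1, 65.1 and 52.9 in E7. Every E7 library was below every K7 library there, while the E7 and K1 libraries overlapped.

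Mba10_g15000 (chr10:32464400-32465514) stood at 31.6 and 71.4 FPKM in K1, 0.779 and 0.667 in E1, 41.6, 46.4 and 52.4 in K7, and 28.2, 36.1 and 31.3 in E7. All E7 libraries were below the K7 libraries. C4D60_Mb03t19490 (chr3:27719487-27721225) had 36.0 and 33.4 FPKM in K1, 0.679 and 0.899 in E1, 74.3, 38.6 and 51.9 in K7, and 50.3, 26.7 and 25.3 in E7. Here E7 A lay within the K7 range and the other E7 libraries below it. Mba06_g33080 (chr6:38057605-38058897) was lower in E1 than the regions above, with 0.0730 and 0.0607 FPKM, against 13.3 and 39.0 in K1, 33.3, 32.9 and 52.6 in K7, and 21.4, 29.7 and 25.6 in E7. The ratio of its E7 mean to its E1 mean was the largest of those that could be computed, at 383. Mba06_g17980 (chr6:13520025-13521257) had 13.5 and 27.7 FPKM in K1, 0.0885 and 0.184 in E1, 26.3, 39.3 and 46.0 in K7, and 22.8, 25.5 and 26.8 in E7. Its lowest K7 library overlapped the E7 range.

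Mba06_g13590 (chr6:10444481-10449239) was higher in both K1 libraries, with 47.5 and 27.3 FPKM, than in K7, with 7.76, 18.8 and 25.3. It had 0.700 and 0.727 FPKM in E1 and 13.4, 17.1 and 14.1 in E7, inside the K7 range. The loci listed for it in E1 covered 0% of the locus with the most FPKM in the controls. Cover of its other control loci was not measured. The region chr4:31601542-31603607 was at 19.2 and 17.0 FPKM in K1, 0.955 and 1.01 in E1, 34.8, 29.8 and 44.5 in K7, and 23.3, 21.4 and 20.3 in E7. E7 was above K1 and below K7 without overlap, and the difference from K7 was -0.70 ± 0.17 on the log2(FPKM + 1) scale (SE, limma adjusted p = 0.0257). It was the single one of these 8 regions past the threshold, and the adjusted p of the other 7 ran from 0.0755 to 0.924. The rule held K7 at 5 FPKM or more, which favours a lower E7, so these values are a description.

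Partial regions have a K7 mean of at least 5 FPKM by the rule and an E7 mean under 5 by their state. Both favour a lower E7, so the limma values of the partial regions are given as a description. Among these regions, that of C4D60_Mb06t21790 (chr6:19967111-19974876) had the highest control level. It was at 18.5 and 14.9 FPKM in K1, 0.556 and 0.431 in E1, 11.7, 9.80 and 8.17 in K7, and 3.37, 2.65 and 2.77 in E7. The 4 groups did not overlap, with E1 lowest, then E7, K7 and K1, and E7 minus K7 was -1.46 ± 0.19 on the log2(FPKM + 1) scale (SE, limma adjusted p = 0.000647). Mba04_g30720 (chr4:36166368-36175907) had 11.5 and 18.7 FPKM in K1, 0.740 and 0.883 in E1, 8.12, 13.2 and 10.8 in K7, and 5.36, 4.93 and 4.51 in E7. Its E7 libraries lay below all controls and above E1, and E7 minus K7 was -0.96 ± 0.23 (SE, limma adjusted p = 0.0222). Mba04_g30380 (chr4:35914908-35920147) was at 9.31 and 10.4 FPKM in K1, 0.0788 and 0.0639 in E1, 13.9, 7.22 and 10.6 in K7, and 4.64, 3.76 and 3.93 in E7. Its E7 libraries likewise lay between E1 and the controls, with E7 minus K7 at -1.14 ± 0.23 (SE, limma adjusted p = 0.00860).

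The region chr10:37937966-37945734 had 10.9 and 7.59 FPKM in K1, 0.377 and 0.451 in E1, 16.3, 10.9 and 5.93 in K7, and 4.88, 2.72 and 3.58 in E7. Its E7 libraries were below every control library, and E7 minus K7 was -1.27 ± 0.32 (SE, limma adjusted p = 0.0282). Loci under 300 bp, which are outside the sum, held a further 12.0 FPKM in E7 A and up to 5.65 in a control library. Mba08_g17610 and Mba08_g17620 share a region (chr8:28878410-28897204) with 5.95 and 9.17 FPKM in K1, 0.0359 and 0.0294 in E1, 6.35, 13.9 and 16.2 in K7, and 2.27, 2.04 and 2.28 in E7. The 3 E7 libraries lay close together and below every control. The ratio of its E7 mean to its K7 mean, 0.181, was the lowest of the 125, and E7 minus K7 was -1.95 ± 0.30 (SE, limma adjusted p = 0.00200). The loci listed for it in E1 covered 21.5% of the locus with the most FPKM in the controls.

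Mba01_g00690 (chr1:472268-474015) was at 9.31 and 14.8 FPKM in K1, 0.322 and 0.284 in E1, 8.09, 6.52 and 8.14 in K7, and 4.66, 2.28 and 2.34 in E7. Again E7 was below every control and above E1, with E7 minus K7 at -1.11 ± 0.26 (SE, limma adjusted p = 0.0194). Mba03_g07720 (chr3:5656224-5660160) had 11.7 and 12.0 FPKM in K1, 0.512 and 0.827 in E1, 5.55, 7.28 and 10.3 in K7, and 2.91, 5.37 and 5.65 in E7. E7 C exceeded the lowest K7 library there, and the difference of -0.63 ± 0.27 did not pass the threshold (SE, limma adjusted p = 0.150). The region of C4D60_Mb02t04090 (chr2:18277465-18283295) had 10.4 and 9.51 FPKM in K1, 0.327 and 1.42 in E1, 14.0 (A), 6.91 (B) and 6.90 (C) in K7, and 5.40, 2.19 and 4.96 in E7. Its E7 libraries were below every control, with a difference from K7 of -0.98 ± 0.36 that did not pass the threshold (SE, limma adjusted p = 0.102).

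**Figure D2:**
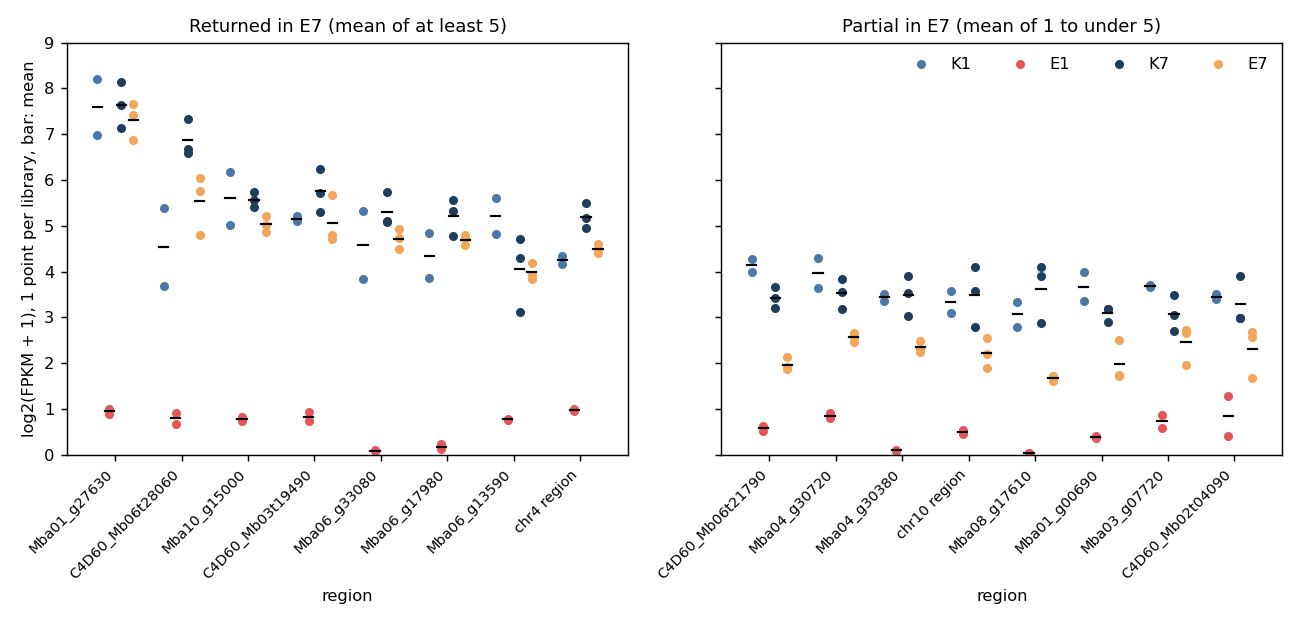
The 8 returned and the 8 partial regions with the highest control level, as log2(FPKM + 1), with 1 point for each library and a bar at the group mean (K1 and E1, 2 libraries; K7 and E7, 3). The E1 points lie lowest in every region. E7 overlaps K7 in 4 of the returned regions and in 1 of the partial regions.

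The question of whether treated fruit had reached the level of control fruit by day 7 was addressed by comparing E7 with K7. K7 was held at 5 FPKM or more by the rule, which favours a lower E7, so the values of the 125 regions are given as a description and are followed by those of regions chosen without K7. The ratio of the E7 mean to the K7 mean was 0.580 at the median (quartiles 0.458 and 0.681), and it was under 0.5 in 42 regions, from 0.5 to under 1 in 80, and at 1 or more in 3. The difference on the log2(FPKM + 1) scale was negative in 123 of the 125 and had a median of -0.67, against -0.11 over all 16821 regions tested. With limma, 34 of the 125 (27.2%) were lower in E7 at an adjusted p under 0.05, where 4.71% of all regions tested were and 5.74% of the 10834 with the same floor in K1 and K7. In the other direction 0 of the 125 were higher in E7, at the adjusted threshold as well as at an unadjusted p under 0.05, where 8.75% of all regions tested were higher at the adjusted threshold. The E7 libraries were all below the K7 libraries in 75 regions (60%), against 19.1% of all regions tested, and all above them in 0, against 15.6%.

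Both states contributed, with 26 of the 67 partial regions and 8 of the 58 returned regions lower in E7. The state is itself read from E7, so this split is a description. All 125 regions passed the filter on a mean of 1 FPKM. The count of 34 fell to 17 without K7 A, to 13 without E7 B and to 10 without E7 C, where 2.31%, 1.40% and 1.34% of all regions tested were lower. It rose to 53 with the layout as a term in the model, where 8.64% of all regions were.

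**Figure D3:**
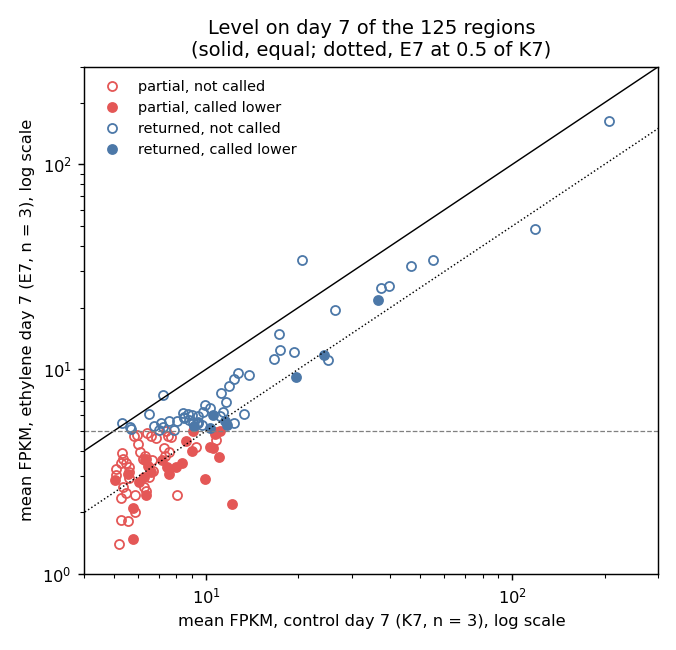
Mean FPKM of the 125 regions on day 7 in control fruit (x axis) and ethylene-treated fruit (y axis), both on a log scale, coloured by their state in E7. Filled points are the 34 that limma called lower in E7. 122 of the 125 lie below the solid line of equal levels, and 42 lie below the dotted line where E7 is at 0.5 of K7.

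Because K7 entered the rule, the comparison was repeated in regions chosen on day 1 alone, with a K1 mean of at least 5 FPKM, an E1 mean under 1 and no condition on day 7. There were 205 of these, the 125 and 80 more in which the K7 mean was under 5. In E7 5 were off, 137 partial and 63 returned. With limma 43 of the 205 (21.0%) were lower in E7 than in K7, where 4.71% of all regions tested were, and 3 were higher, where 8.75% were. The median difference was -0.57 on the log2(FPKM + 1) scale. Among the 80 alone, whose K7 mean was under 5 FPKM by construction, 9 (11.25%) were lower and 3 higher, with a median of -0.37. The 43 fell to 22 (10.7%) without K7 A, to 15 (7.32%) without E7 B and to 13 (6.34%) without E7 C. Of all regions tested, 2.31%, 1.40% and 1.34% were lower in these settings.

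The 5 that were off in E7 were among the 80 and had K7 means of 0.348 to 3.60 FPKM. In 1 of the 5 the K7 mean was also under 1 FPKM. With limma, 1 of the 5 was called lower in E7 than in K7, that of C4D60_Mb05t12260 (chr5:9367939-9381799). It was at 6.79 and 4.98 FPKM in K1, 0.516 and 0.804 in E1, 5.59, 3.65 and 1.57 in K7, and 0.808, 1.103 and 0.905 in E7, and the groups of day 7 did not overlap (difference -1.15, limma adjusted p = 0.0349). The other 4, not called by limma, were the regions of Mba00_g03410, Mba00_g09360 and Mba00_g12930, which lie on unplaced scaffolds, and of Mba08_g16540. Their E7 means were also below their K7 means, except in the region of Mba00_g12930. In that of Mba00_g03410 the E7 and K7 libraries did not overlap either. In the region of Mba00_g12930 the K1 mean rested on K1 A, with 9.40 FPKM against 0.603 in K1 B. In that of Mba00_g09360 it rested likewise on K1 A, with 13.2 against 1.09, and in that of Mba00_g03410 on K1 B, with 14.2 against 1.93.

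The size of the day 1 difference and the day 7 difference went together across regions. The day 1 ratio (E1 mean over K1 mean) and the day 7 ratio (E7 mean over K7 mean) share no library. Over the 10834 regions with at least 5 FPKM in both control groups, the median day 7 ratio was 0.604 where the day 1 ratio was under 0.1 (182 regions, 98 of them among the 125) and 0.653 where it was 0.1 to under 0.25 (551 regions, 27 of them among the 125). It was 0.728, 0.851 and 1.04 in the next bins, up to a day 1 ratio of 2, and 1.49 above that. The share of regions lower in E7 than in K7 was 29.7% and 25% in the first bins and 0.41% in the last. This is a description across regions, which are not independent replicates, and all of them come from the same 10 libraries.

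**Figure D4:**
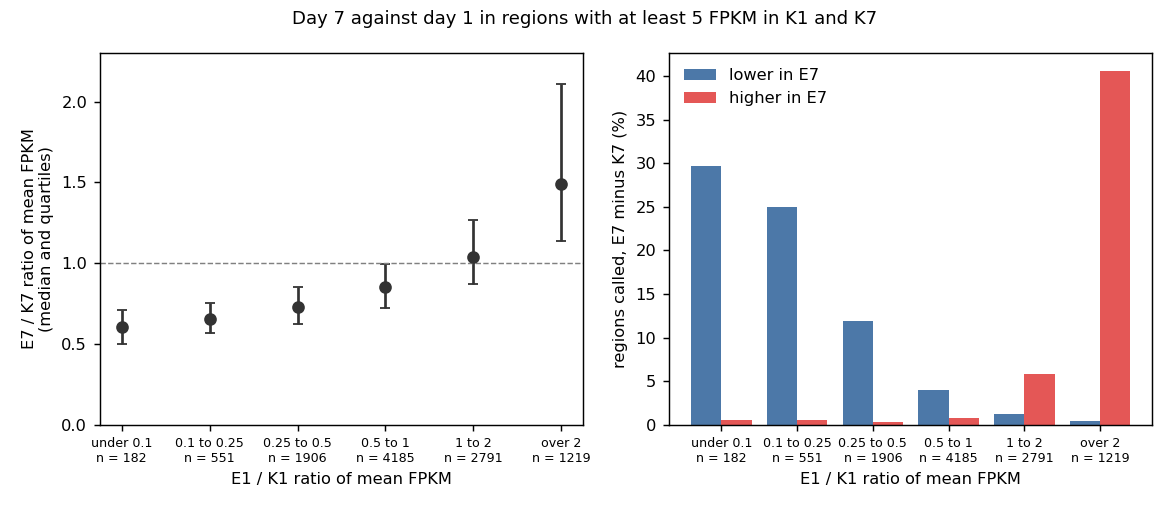
Regions with at least 5 FPKM in K1 and K7, binned by the ratio of the E1 mean to the K1 mean. Left, median and quartiles of the ratio of the E7 mean to the K7 mean, which rises from 0.604 in the lowest bin to 1.49 in the highest. Right, percent of regions that limma called lower (29.7% to 0.41%) or higher (0.549% to 40.6%) in E7 than in K7, in the same bins.

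The level of treated fruit on day 7 was also set against day 1, where the rule had fixed E1 under 1 FPKM and so favoured the higher direction. With limma 115 of the 125 (92%) were higher in E7 than in E1, where 14.3% of all regions tested were, and 0 were lower, also at an unadjusted p under 0.05, where 11.0% of all regions tested were lower at the adjusted threshold. Nothing is read from this count, since its direction follows from the choice. The median difference was 1.86 on the log2(FPKM + 1) scale, against 0.11 over all regions tested, and the latter was 0.00 after median-of-ratios scaling. The ratio of the E7 mean to the E1 mean had a median of 10.1 over the regions above 0 in E1 and was lowest, at 2.01, in the region of C4D60_Mb05t05100. The 10 regions that did not pass the threshold were all partial, a state whose low E7 mean makes this call less likely. Of the 10, 5 lay on chromosome 5, which held 13 of the 67 partial regions. Among the 10 were the 3 in which E7 and E1 overlapped and the region of Mba06_g09340.

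At the low end of the day 7 ratio, after Mba08_g17610, came chr6:41401496-41410363 with a ratio of 0.258. It was at 7.06 and 3.79 FPKM in K1, 0.559 and 0.553 in E1, 3.48, 3.85 and 9.99 in K7, and 2.22, 1.75 and 0.493 in E7. E7 was below every control, and E7 C was below both E1 libraries. The difference from K7 was -1.39 ± 0.40 (SE, limma adjusted p = 0.0447), and 12 of 22 alternatives ended the call, the largest limma adjusted p being 0.152. The loci listed for it in E1 covered 0% of the locus with the most FPKM in the controls. The region of Mba06_g09340, described above, followed with a ratio of 0.270, and there the difference from K7 was -1.05 ± 0.55 (SE, limma adjusted p = 0.234). These regions were picked by their low E7 to K7 ratio, and the rule set a floor on K7. Both favour a lower E7, so the limma values are a description.

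At the high end 3 regions had an E7 mean at or above the K7 mean. Mba05_g01400 was at 6.29 and 10.1 FPKM in K1, 0.775 and 0.534 in E1, 5.10, 4.67 and 6.20 in K7, and 5.16, 5.39 and 5.80 in E7, a ratio of 1.02. Mba07_g05070 was at 9.38 and 10.7 FPKM in K1, 0.943 and 0.937 in E1, 6.63, 7.88 and 7.22 in K7, and 8.15, 4.59 and 9.68 in E7, a ratio of 1.03. In both the E7 libraries overlapped those of K7, and the log2 differences of 0.04 ± 0.21 and -0.01 ± 0.24 (SE) changed sign under some alternatives. The third was chr4:33298169-33301651, with a ratio of 1.65 and a difference of 1.50 ± 1.12 (SE, limma adjusted p = 0.410). Its 4 low libraries, K1 B, K7 A and both of E1, listed 2 loci there, and the other 6 listed 1 assembled locus.

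What the tables list within a region bears on its sum. The 125 regions had a median length of 4681 bp (414 to 31587), against 6790 bp over all regions tested and 8314 bp over those at the floor of 5 FPKM. They were merged from a median of 9 distinct loci (1 to 67). In 50 regions each table had 1 row, so that the sum was a single value. The rule set the control and E1 means apart, which favours separate bounds, so the bounds are given as a description. In all 50 the lower bounds of the control libraries exceeded the upper bounds of E1, and in 49 the lower bounds of E7 did. The exception was chr9:9175182-9177043, with 0.607 and 1.27 FPKM in E1 and 3.88, 2.15 and 3.75 in E7. Of the 50, 13 were lower in E7 than in K7 with limma, as were 34 of the 125 and 4.71% of all regions tested. K7 was held at 5 FPKM or more by the rule, so this count too is a description. In 59 regions at least 1 control table listed exactly the loci that an E1 table listed, and the lowest such control value was at 1 FPKM or more in 58 of them and at 5 or more in 40. In the other 66 no control table listed exactly the same loci as E1. The locus with the most FPKM in the controls was covered to at least 90% by loci listed in E1 in 98 regions and to under 30% in 6, those of Mba06_g13590, Mba07_g05050, Mba08_g17610, Mba09_g26090 and C4D60_Mb05t17270 and chr6:41401496-41410363. In these 6 the low E1 value came from loci that covered little or none of that control locus. Cover of the remaining control loci was not measured.

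All 125 regions lay on the 11 chromosomes, and 0 of the 375 regions at the floor on unplaced scaffolds were among them. They made up 0.656% (chromosome 8) to 1.98% (chromosome 9) of the regions at the floor on their chromosome. A single pair was adjacent, the regions of Mba07_g05050 and Mba07_g05070, with E1 means of 0.842 and 0.940 FPKM and E7 means of 2.93 and 7.48. For the 104 regions at the floor that flanked the 125, the ratio of the E1 mean to the K1 mean had a median of 0.728, against 0.802 over all regions at the floor.

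The lists by chromosome that follow name the regions that limma called lower in E7 than in K7, as a description. K7 was held at 5 FPKM or more by the rule, which favours these calls. They made up 34 of the 125 (27.2%), against 4.71% of all regions tested, and no chromosome was tested against another. On chromosome 1 the E7 means of 9 regions ran from 3.09 to 163 FPKM. Beside Mba01_g27630, the returned regions were those of Mba01_g30570, Mba01_g15330, Mba01_g18820, C4D60_Mb01t03350 and C4D60_Mb01t17150, and the partial ones those of Mba01_g00690, of Mba01_g23410 with Mba01_g23420, and of C4D60_Mb01t26690. Lower in E7 than in K7 were C4D60_Mb01t03350 and Mba01_g00690. Chromosome 2 held 9 regions with E7 means of 3.35 to 12.4 FPKM. Those of Mba02_g07600, Mba02_g23160, C4D60_Mb02t01300 and C4D60_Mb02t09960 and chr2:30364423-30369441 had returned, and those of Mba02_g15970, C4D60_Mb02t04090, C4D60_Mb02t15500 and C4D60_Mb02t03180 were partial. The regions of C4D60_Mb02t09960, C4D60_Mb02t15500 and C4D60_Mb02t03180 were lower in E7 than in K7. Chromosome 3 held 7, with E7 means of 3.32 to 34.1 FPKM. C4D60_Mb03t19490, Mba03_g09270 and Mba03_g05860 had returned, while Mba03_g07720, Mba03_g02780, Mba03_g09630 and C4D60_Mb03t18580 were partial, and Mba03_g02780 and C4D60_Mb03t18580 were lower in E7.

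The 13 regions of chromosome 4 had E7 means of 2.02 to 34.1 FPKM. Returned were chr4:31601542-31603607, chr4:33298169-33301651, the region of C4D60_Mb04t18330, those of Mba04_g07990 and Mba04_g20560, and the region that holds Mba04_g26750, Mba04_g26770 and Mba04_g26790. Partial were those of Mba04_g30720, Mba04_g30380, Mba04_g22800, Mba04_g07740, Mba04_g28530, Mba04_g05520 and C4D60_Mb04t23610. Of these 13, 4 were lower in E7 than in K7, namely chr4:31601542-31603607 and the first 3 of the partial regions. Chromosome 5 held 17 regions and the lowest share of returned ones, 4, with E7 means of 1.82 to 6.18 FPKM over the 17. Mba05_g07470, Mba05_g19270, Mba05_g18910 and Mba05_g01400 had returned. The 13 partial ones were those of Mba05_g00470, Mba05_g18830, Mba05_g02720, Mba05_g20240, Mba05_g22300, Mba05_g09060, C4D60_Mb05t22150, C4D60_Mb05t13490, C4D60_Mb05t17270, C4D60_Mb05t05100, and C4D60_Mb05t03010 with C4D60_Mb05t03020, together with chr5:5570864-5580213 and chr5:35138563-35158531. Of these 17, Mba05_g18830 and C4D60_Mb05t22150 were lower in E7 than in K7, and the median K7 mean of the 17, 5.94 FPKM, was the lowest of the 11 chromosomes.

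Chromosome 6 held 17 regions, 11 of them returned, with E7 means of 1.41 to 48.4 FPKM. Beside C4D60_Mb06t28060, Mba06_g33080, Mba06_g17980 and Mba06_g13590, the returned regions were those of Mba06_g21850, Mba06_g06930, Mba06_g32490, Mba06_g33850, Mba06_g32940 and Mba06_g21570 and chr6:7125997-7132635. The partial ones were those of C4D60_Mb06t21790, C4D60_Mb06t04350, C4D60_Mb06t28940 and Mba06_g09340, chr6:8350910-8356438 and chr6:41401496-41410363. Lower in E7 than in K7 were Mba06_g21850, Mba06_g32490, C4D60_Mb06t21790, chr6:8350910-8356438 and chr6:41401496-41410363. Chromosome 7 had 10 regions, with E7 means of 2.93 to 8.31 FPKM, and 0 of them passed the threshold between E7 and K7. Mba07_g16650, Mba07_g04200, Mba07_g05070, and Mba07_g11110 with Mba07_g11120 had returned, and Mba07_g14370, Mba07_g05050, Mba07_g04370, Mba07_g06310, chr7:8922161-8953747 and chr7:35566779-35572159 were partial. Chromosome 8 had 7 regions, with E7 means of 2.20 to 9.21 FPKM. Mba08_g27340 and Mba08_g02410 had returned, and Mba08_g17610, Mba08_g04500, Mba08_g13960, Mba08_g26590 and C4D60_Mb08t20190 were partial, with Mba08_g27340 and Mba08_g17610 lower in E7.

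The 16 regions of chromosome 9 were evenly split, with 8 returned and 8 partial and E7 means of 2.81 to 7.62 FPKM. Returned were those of Mba09_g12830, Mba09_g20860, Mba09_g15840, Mba09_g16640, Mba09_g18130, Mba09_g04170, and C4D60_Mb09t13890 with C4D60_Mb09t13900, and chr9:32946201-32950328. Partial were those of Mba09_g18180, Mba09_g13000, Mba09_g22070, Mba09_g16390, Mba09_g26090, C4D60_Mb09t01310 and C4D60_Mb09t18590, and chr9:9175182-9177043. Mba09_g15840, Mba09_g22070, Mba09_g16390, C4D60_Mb09t01310 and C4D60_Mb09t18590 were lower in E7 than in K7. Chromosome 10 held 12 regions with E7 means of 2.97 to 31.9 FPKM. Of these, 6 were lower in E7 than in K7, where 4.71% of all regions tested were. Mba10_g15000, Mba10_g00300, Mba10_g03200, chr10:36020163-36023677 and chr10:860060-877391 had returned. Partial were Mba10_g19410, Mba10_g14080, Mba10_g23050, chr10:37937966-37945734, chr10:37921431-37926932, chr10:40882713-40895009 and chr10:35627711-35633902. The 6 were chr10:36020163-36023677 and the partial regions other than Mba10_g23050 and chr10:35627711-35633902. Chromosome 11 had 8 regions, 4 returned and 4 partial, with E7 means of 2.10 to 6.07 FPKM. Mba11_g06830, C4D60_Mb11t12820, C4D60_Mb11t20350 and chr11:5557037-5562449 had returned, and Mba11_g12890 with Mba11_g12900, C4D60_Mb11t08800, C4D60_Mb11t10910 and chr11:5154501-5162407 were partial. All of these partial regions other than chr11:5154501-5162407 were lower in E7 than in K7.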

How the data were processed

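Pulp RNA was measured in 10 libraries (K1 2, E1 2, K7 3, E7 3). Per the labels the reads were checked with FastQC 0.11.8, trimmed with Trimmomatic 0.38.0, mapped with TopHat and quantified with Cufflinks, and the authors deposited FPKM for each locus, in a separate table for each library that also holds bounds on every value. The sources used here do not state how strand and multi-mapped reads were handled. The number of fragments at each locus is not in the tables, so no count test was run. The paper gives the reads of each library, and E1 A had the fewest of the 10. Depth was not used in the comparisons. FPKM is scaled within each library, and a sum over loci of different lengths mixes their scales.

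Regions were built in Python 3.11.15 (pandas 2.3.3) from loci of at least 300 bp. Regions with a mean of at least 1 FPKM over the 10 libraries (16821) were tested as log2(FPKM + 1) with limma 3.58.1 in R 4.3.3, two-sided, as group means fitted over all 4 groups, with a trend in the variance and p-values adjusted by Benjamini-Hochberg over all of them. A pseudocount of 1 understates the change of low regions. The code was tested on simulated data. Named in full were the 8 regions of highest control level in each state, the 3 highest and 3 lowest E7 to K7 ratios, and the 3 on each side of each limit. The members, limits and lists were chosen with earlier results of these data known. Planned lists by product name and promoter motifs were not run, since the reference used here gives neither. Locus tags matched on 0% of annotated loci on chromosomes 7 and 10 and on 94.3% to 99.9% elsewhere. Alternatives covered pseudocount, filter, scaling, layout, variance model, replicate block, locus length, limits and each library left out.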

Additional observations from a re-analysis of the deposited data

Results flagged for a closer look

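Among the 205 regions chosen on day 1 alone, 3 were higher in E7 than in K7 at the adjusted limma threshold, with every E1 library below every K1 library and every E7 library above every K7 library. That of Mba03_g17290 was at 11.8 and 5.46 FPKM in K1, 0.348 and 0.213 in E1, 0.334, 0.572 and 0.773 in K7, and 4.10, 3.18 and 3.30 in E7, a log2(FPKM + 1) difference on day 7 of 1.54 ± 0.25 (SE, limma adjusted p = 0.00281). Mba03_g21700 was at 7.57 and 6.16 FPKM in K1, 0.250 and 0.0999 in E1, 1.37, 1.70 and 0.423 in K7, and 5.05, 5.22 and 5.53 in E7, a difference of 1.59 ± 0.24 (limma adjusted p = 0.00174). Mba07_g18990 was at 3.27 and 7.72 FPKM in K1, 0.785 and 0.633 in E1, 0.352, 0.517 and 0.365 in K7, and 7.13, 7.80 and 7.92 in E7, a difference of 2.61 ± 0.25 (limma adjusted p = 6.18e-05). All 3 were thus low in E1 and in K7 and higher in K1 and in E7. The difference between days was not tested, since the day 1 values chose them.

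Loci under 300 bp were outside the sums. In E7 A they added 12.0 FPKM inside chr10:37937966-37945734, where the highest control library had 5.65, 16.8 FPKM inside chr7:8922161-8953747, where the controls had 0, and 4.46 FPKM inside the region of Mba04_g05520, where the controls had 0. E7 A is a single-end library, and E7 B had no such locus above 0 in any of the 125 regions. What set these values was not tested.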

How the results depend on the processing

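The number of regions depended on the limits more than on the scaling, which gave 100 with median-of-ratios factors. It was 55 (35 partial, 20 returned) with an E1 limit of 0.5 FPKM, 383 (200 and 183) with a limit of 2, 24 (1 and 23) with a floor of 10, and 58 (22 and 36) with every library past its limit. Leaving out 1 library gave 110 to 151 regions, 54 to 84 partial, 50 to 67 returned and 0 to 1 off. The count lower in E7 than in K7 was 21 of 80 with a filter of 5 FPKM, 53 with the layout as a term, 21 with the groups of the contrast alone, and 10 to 36 with 1 library left out. For the 205 regions chosen on day 1 it was 21 of 82, 65, 26 and 13 to 46, and 0 were higher with the filter of 5 FPKM. Of all regions tested, 5.43%, 8.64%, 2.99% and 1.34% to 5.44% were lower in these settings, and 9.46% were higher with that filter. For the 125 regions, the share lower in E7 stayed at least 4.45 times that of all regions tested in all 26 settings. The rule held K7 at 5 FPKM or more, which favours a lower E7 in every setting, so this ratio is a description. With loci of any length added to the 125 regions alone, an alternative chosen after seeing the data, 124 met the rule (64 and 60). No other region could enter in that setting. With a missing row read as 0, chosen likewise, 149 regions met the rule (76 and 70), with 3 off. The causes were not tested.

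The difference of Mba05_g01400 ranged from -0.0397 to 0.13 with 1 library left out. That of Mba07_g05070 was 0.0058 with a pseudocount of 5, 0.0562 with median-of-ratios scaling, 0.0318 with quantile normalization and -0.20 to 0.27 with 1 library left out. The same letter in K7 and E7 gave correlations of deviations of 0.332, 0.031 and 0.118 for A, B and C. Different letters gave -0.258 to 0.197. Both A libraries of day 7 are single-end, so a shared letter and a shared layout cannot be told apart there. What the letters mark is not stated, and they were not taken as pairs. With a replicate block by letter or by number, 38 of the 125 regions and 46 of the 205 were lower in E7 than in K7. Of all regions tested, 4.70% (letter) and 5.18% (number) were. Higher in E7 than in E1 were 114 and 117 of the 125, against 15.3% and 15.2% of all regions tested. The limits on K7 and E1 favour these directions in the 125, so the counts are a description.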

Other observations

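Regions without a row in every table, 2873 in all, were outside the rule. With a missing row read as 0, 24 of them would have met it, 3 of these with an E7 mean under 1 FPKM. All 24 lacked a row in at least 1 E1 table, 17 of them in both. A missing row was not read as 0, because 11 of the 24 lie in 1 stretch of chromosome 9 where rows are missing in runs. E1 A had no row in 60 regions in a row (chr9:3490607-3976587) and E1 C in 45 (chr9:3717457-4056343), E7 B and E7 C in 34 and 36, and the control libraries in at most 10. Of the 13 elsewhere, 7 had a row in every control and every E7 table. What left these rows out was not tested.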
